A study of Mus musculus with 2 samples.

Results

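The genes described here are those of the cytosolic ribosomal proteins, taken by symbol. A gene was a member if its symbol began with Rpl or Rps followed by a digit, or was Rpsa, Rplp0, Rplp1 or Rplp2, had no -ps suffix and had at least 50 unique molecular identifiers (UMIs, one per captured transcript molecule) summed over both libraries. The symbol rule found 96 genes, and 95 of the 32285 genes in the tables reached 50 UMIs. Rpl10l, with 0 UMIs, was left out. Of the 95, 43 encode proteins of the large subunit, 31 proteins of the small subunit and 3 the proteins of the stalk, and these 77 are called the core members. Another 7 are close paralogs of core members (Rpl22l1, Rps27l, Rps27rt, Rpl36al, Rpl39l, Rpl3l and Rpl7l1). The remaining 11 are not ribosomal proteins: 10 belong to the S6 kinase family, and Rps19bp1 encodes a binding partner of Rps19. The core members lie on 19 chromosomes, with at most 14 on 1 of them (chromosome 7).

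The data are single-cell 3′ RNA libraries (10x Genomics, kit v3.1) of cells sorted as DAPI-negative, CD31-positive and CD45-negative from skin tumors of mice. The tumors grew from B16F10-OVALBUMIN/VEGFC cells, a mouse melanoma line labelled as carrying ovalbumin and VEGFC, of which 500K were implanted intradermally. Each library pooled 3 tumors, harvested on day 15 in both groups. The Cre plus library came from Ifngr1iProx1 mice and the Cre minus library from Ifngr1WT mice; Prox1 is the transcription factor of lymphatic identity, and how Cre was driven or induced and the age of the mice are not given in the sources used here. With 1 library per group there is no replicate: no test was made, no difference between the libraries has a replicate check, and every interval below is a 95% interval that covers counting error only.

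Ribosomal proteins are small, mostly basic proteins that assemble with ribosomal RNA in the nucleolus into a small subunit, which reads the messenger RNA, and a large subunit, which forms the peptide bond. Their transcripts are among the most abundant and most stable in a cell, and most begin with a run of pyrimidines at the 5′ end through which growth signals set their translation. Malat1 is a long noncoding RNA that stays in the nucleus, so its share of a barcode's UMIs separates barcodes rich in nuclear RNA from barcodes poor in it.

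The starts of members that the results below turn on are shown as 10 bases before and 20 bases from the RefSeq start on build GRCm38.p6, 5′ to 3′ in the direction of transcription. Capitals mark the longest run of a C followed by at least 4 pyrimidines (C or T) in the stretch. The stretches lie at chr10:128626487-128626516 on the minus strand for Rps26, chr10:23787190-23787219 on the minus strand for Rps12, chrX:102189372-102189401 on the minus strand for Rps4x, chrX:134585644-134585673 on the plus strand for Rpl36a, chr12:69184048-69184077 on the minus strand for Rpl36al, chr4:152325716-152325745 on the plus strand for Rpl22, chr3:28805498-28805527 on the plus strand for Rpl22l1, chr2:32961702-32961731 on the plus strand for Rpl12 and chr5:115559457-115559486 on the plus strand for Rplp0. They are members that stood high in the family by Malat1 share (Rps26, Rps12 and Rps4x), 2 pairs of paralogs, and members at the ends of the lymphatic against blood endothelial comparison (Rpl12 and Rplp0). RefSeq gives Rpl22 a second start, not shown.
Rps26: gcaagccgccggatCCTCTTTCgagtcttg
Rps12: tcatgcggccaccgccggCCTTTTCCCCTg
Rps4x: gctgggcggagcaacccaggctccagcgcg
Rpl36a: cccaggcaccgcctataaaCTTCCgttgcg
Rpl36al: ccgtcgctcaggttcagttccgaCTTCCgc
Rpl22: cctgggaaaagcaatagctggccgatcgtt
Rpl22l1: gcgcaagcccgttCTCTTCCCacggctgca
Rpl12: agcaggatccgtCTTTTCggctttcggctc
Rplp0: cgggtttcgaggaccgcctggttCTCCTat

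The RefSeq promoter table held 57 of the 77 core members. A run of a C followed by at least 4 pyrimidines, beginning within 10 bases of the annotated start and searched on the transcribed strand only, was found in 34 of the 57 (59.6%), against 35.2% of the 20267 genes of the tables with an entry. The letters CTTTTC, which overlap such runs, occurred in the 100 bases around the start in 15.8% of the core members and 4.04% of all genes on the transcribed strand, and in 3.51% and 3.53% on the other strand. The paralogs had the run in 5 of 7 entries. These matches describe the printed windows and are not shown to be sites.

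After removal of barcodes with fewer than 500 genes or with 10% or more mitochondrial UMIs, 1782 of 2491 barcodes (63387899 UMIs) remained in Cre plus and 1552 of 2502 (70321159 UMIs) in Cre minus. The libraries shared 1 barcode sequence. Kept barcodes were assigned to classes by their summed marker UMIs, for example Prox1, Lyve1, Flt4 and Mmrn1 for lymphatic endothelial cells (LEC) and Flt1, Plvap, Emcn and Esm1 for blood endothelial cells (BEC). The gate took 784 LEC, 202 BEC, 480 melanoma and 44 macrophage barcodes in Cre plus, against 214, 220, 814 and 57 in Cre minus, so that more melanoma than endothelial barcodes passed in Cre minus although the sort was for CD31. Barcodes that passed more than 1 gate were set aside as mixed (34 and 38), and 197 and 174 passed none. All 7 lymphatic markers were above 0 in every LEC sum, and the summed melanoma markers in LEC sums were between 54.4 and 106 CPM, that is UMIs divided by all UMIs of the sum and brought to a common scale, against at least 13376 in melanoma sums. The same markers set the gates, so this contrast follows in part from the gating and is a description only. Ifngr1, the gene named in the genotype, stood at 32.6 CPM (452 UMIs) in Malat1-rich LEC of Cre plus, against 86.4 CPM (70 UMIs) in those of Cre minus; 3′ tags need not lie in the deleted part, which the labels do not give.

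Taken over all barcodes, 16.8% of the UMIs of Cre plus and 16.4% of those of Cre minus fell to the 95 genes. The members of highest count over both libraries were Rplp1 (714679 UMIs), one of the paired acidic proteins of the stalk that recruits translation factors, and Rpl32 (677413 UMIs), a protein of the large subunit. Rpl41 (517737 UMIs), the smallest protein of the ribosome, Rpl13 (470045 UMIs) and Rpl23 (469817 UMIs), all of the large subunit, and Rps29 (453655 UMIs), a zinc-binding protein of the small subunit, came next. Among core members Rpl36a had the fewest UMIs, 92651, and all 77 had at least 50 UMIs in each comparison below. UMIs of a 3′ library count molecules and do not grow with transcript length, but capture can differ between genes, so orders of level between genes are of the counts only.

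In LEC and BEC the share of UMIs in ribosomal protein genes was higher in barcodes with little Malat1, and in melanoma barcodes the gap was smaller. Barcodes were split at a Malat1 share of 0.1% of their UMIs, into Malat1-poor (below) and Malat1-rich. In LEC the median barcode gave the 95 genes 28.1% of its UMIs where Malat1-poor and 14.3% where Malat1-rich in Cre plus (348 and 436 barcodes), and 29.9% and 6.59% in Cre minus (177 and 37 barcodes). In BEC these medians were 22.1% and 10.2% in Cre plus (58 and 144 barcodes), and 24.7% and 4.42% in Cre minus (83 and 137 barcodes). Melanoma barcodes differed less by Malat1: 21.7% and 17.5% in Cre plus (272 and 208 barcodes), and 19.9% and 17.8% in Cre minus (451 and 363 barcodes). The Malat1-poor endothelial medians were the highest of these, and the Malat1-rich endothelial medians of Cre minus the lowest.

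**Figure D1:**
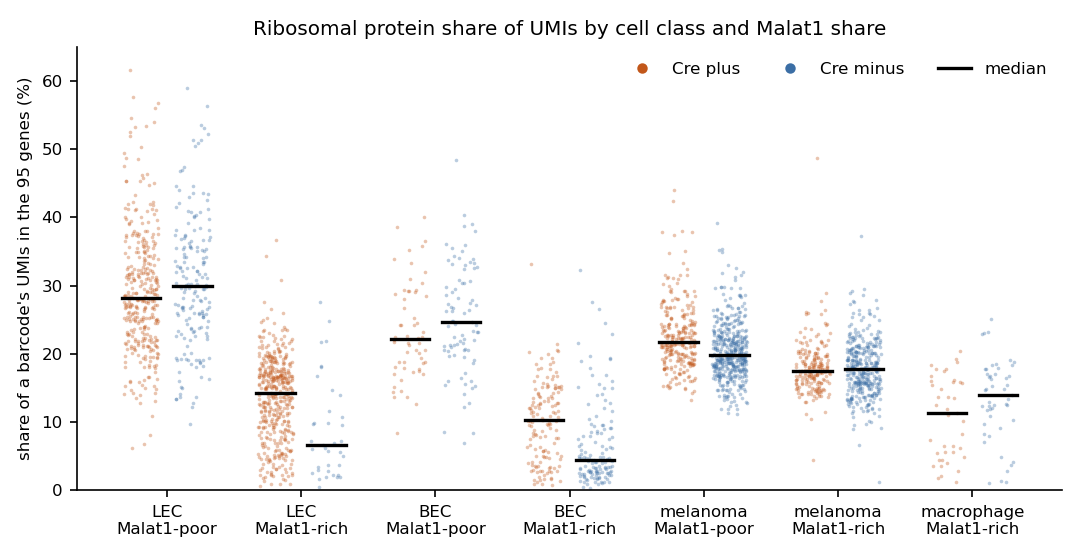
Share of each barcode's UMIs in the 95 genes (vertical axis, percent) for LEC, BEC, melanoma and macrophage barcodes split by Malat1 share, with Cre plus left of Cre minus. Points are barcodes and black bars medians; the LEC medians were 28.1% and 29.9% in Malat1-poor and 14.3% and 6.59% in Malat1-rich barcodes of Cre plus and Cre minus.

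Malat1-rich barcodes of the smaller classes were compared by their medians as well. Macrophage barcodes had medians of 11.3% in Cre plus, against 13.9% in Cre minus (41 and 49 barcodes). Pericyte and fibroblast barcodes had 15.9% and 11.96% (26 and 14 barcodes), and T and NK barcodes 24.5% and 26.99% (8 and 11 barcodes), the highest Malat1-rich medians. The last class rests on few barcodes, of which the 3 deepest held 74.3% of the UMIs in Cre plus, against 67.9% in Cre minus.

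The median ribosomal protein share of LEC was lower at each higher step of the Malat1 share in both libraries. In Cre plus the median was 28.96% in barcodes with no Malat1 UMI (274 barcodes), 17.8% between 0.1% and 0.2% Malat1 (29 barcodes), 16.2% between 0.5% and 1% (124 barcodes), 12.2% between 1% and 2% (138 barcodes) and 6.66% at 2% or more (67 barcodes). In Cre minus it was 30.2% with no Malat1 UMI (141 barcodes) and 24.8% between 0.1% and 0.2% (3 barcodes). It was 13.4% between 0.5% and 1% (2 barcodes), 6.19% between 1% and 2% (15 barcodes) and 2.66% at 2% or more (10 barcodes). Several steps of Cre minus thus rest on few barcodes. In BEC of Cre minus the medians were 24.7% with no Malat1 UMI (61 barcodes), 4.18% between 0.5% and 1% (33 barcodes) and 3.45% between 1% and 2% (55 barcodes). In melanoma barcodes of Cre plus they were 22.3% with no Malat1 UMI (205 barcodes) and 17.2% between 1% and 2% (39 barcodes). Near the border, with a Malat1 share between 0.05% and 0.2%, lay 47 of 784 LEC of Cre plus and 8 of 214 of Cre minus. For BEC these were 16 of 202 and 15 of 220, and for melanoma 54 of 480 and 96 of 814. Melanoma barcodes of Cre minus between 0.1% and 0.2% Malat1 (64 barcodes) had a median of 20.1%, against 19.8% with no Malat1 UMI (307 barcodes).

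**Figure D2:**
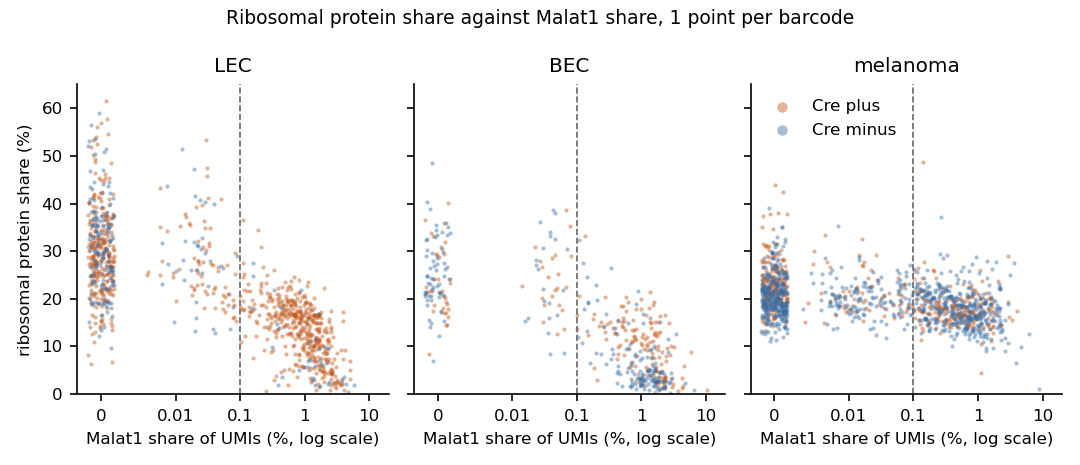
Share of UMIs in the 95 genes (vertical axis, percent) against the Malat1 share (horizontal axis, percent, log scale, barcodes without a Malat1 UMI drawn at 0) for LEC, BEC and melanoma barcodes of Cre plus and Cre minus. The dashed line is the border of 0.1%; in Cre plus LEC the median was 28.96% without Malat1 and 6.66% at 2% Malat1 or more, while the melanoma medians of Cre plus lay between 16.96% and 22.3%.

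Depth differed between the Malat1 strata of LEC, BEC and melanoma. In Malat1-rich barcodes of these classes the mitochondrial share was lower where the ribosomal protein share was higher. The median depth of LEC in Cre plus was 5034 UMIs for Malat1-poor and 29418.5 for Malat1-rich barcodes, and in Cre minus 5059 and 18377. In BEC these depths were 3400.5 and 23760.5 in Cre plus, and 3762 and 13724 in Cre minus. In melanoma they were 9515 and 146894 in Cre plus, and 11322 and 138042 in Cre minus. Thinned to 2000 UMIs per barcode, which left out 40 Malat1-poor and 20 Malat1-rich LEC of Cre plus and 6 and 2 in Cre minus as shallower, the pooled ribosomal protein share of LEC was 29.7% in Malat1-poor and 13.4% in Malat1-rich barcodes of Cre plus, and 30.5% and 7.87% in those of Cre minus. Within Malat1-rich LEC the correlation over barcodes of the ribosomal protein share with the mitochondrial share was −0.55 in Cre plus (436 barcodes) and −0.47 in Cre minus (37 barcodes), and in Malat1-poor LEC it was 0.04 and −0.05. In Cre plus and Cre minus this correlation was −0.52 and −0.58 in Malat1-rich BEC, and −0.29 and −0.51 in Malat1-rich melanoma barcodes. In Malat1-poor barcodes it was 0.11 and 0.02 in BEC, and −0.12 and −0.15 in melanoma. With the log10 of depth the correlation was 0.23 and −0.18 in Malat1-rich LEC, and −0.05 and −0.14 in Malat1-poor LEC. Barcodes of 1 library share its reagents and sort, and parts of one total push each other down, so these correlations are descriptions. A share of UMIs does not tell more ribosomal protein transcripts from fewer other transcripts.

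Each core member was then compared by summed UMIs scaled to CPM. In LEC all 77 core members were higher in Malat1-poor than in Malat1-rich barcodes by over 1.5-fold in both libraries. The median log2 ratio of the 77 was 0.88 in Cre plus and 1.56 in Cre minus, where the median of all genes compared was −0.85 and −0.77. Of all genes 5.15% in Cre plus and 15.8% in Cre minus were over 1.5-fold higher. The same held in BEC, with all 77 over 1.5-fold higher and medians of 0.86 and 1.51, against −0.66 and −0.87 for all genes, of which 11% in Cre plus and 15.9% in Cre minus were over 1.5-fold higher. In melanoma all 77 were above 0, with medians of 0.31 and 0.25 (all genes −0.34 and −0.24), but only 1 member passed 1.5-fold in each library, at a background of 1.9% in Cre plus and 1.98% in Cre minus. The melanoma count was between 0 and 2 under the alternatives run, for which the share of all genes was not computed.

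Rps26 was the melanoma member that passed in both libraries, a small subunit protein near the channel where the messenger RNA leaves. Its level was 4052 CPM in Malat1-poor and 1613 CPM in Malat1-rich LEC of Cre plus, and 4631 and 1015 CPM in those of Cre minus. In BEC it was 3334 and 1224 CPM in Cre plus, and 3706 and 863 CPM in Cre minus. In melanoma it was 3361 and 1898 CPM in Cre plus, and 2902 and 1917 CPM in Cre minus. Malat1-poor barcodes were higher in each of the 6 comparisons, and Rps26 ranked first of the 77 in each, between 0.35 and 0.63 above the core median on the log2 scale. Its log2 ratios in LEC were 1.33 (interval 1.30 to 1.36) in Cre plus and 2.19 (2.08 to 2.30) in Cre minus. Ribosomal protein genes have many processed copies in the genome, and UMIs that such copies share with their source gene make single members uncertain.

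Among the other core members, Rps12, Rps4x, Rps24 and Rpl41 lay above the core median in all 6 comparisons, and so, with smaller distances, did Rpl21 and Rpl22. Rps12, of the small subunit, was at 6388 CPM in Malat1-poor and 1694 CPM in Malat1-rich LEC of Cre minus (log2 ratio 1.92), second to Rps26 there. Rps4x, the X-linked gene of S4, lay between 0.09 and 0.22 above the core median. At the other end Rps15, a small subunit protein, ranked between 69 and 74 of 77 in all 6 comparisons. Rps3, which lines the channel where the messenger RNA enters, ranked between 60 and 67, and Rpl18 between 51 and 77. The order of the 77 log2 ratios was shared between the libraries to the extent of a Pearson correlation of 0.81 in LEC, 0.52 in BEC and 0.79 in melanoma, a description over 77 genes of the same class.

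**Figure D3:**
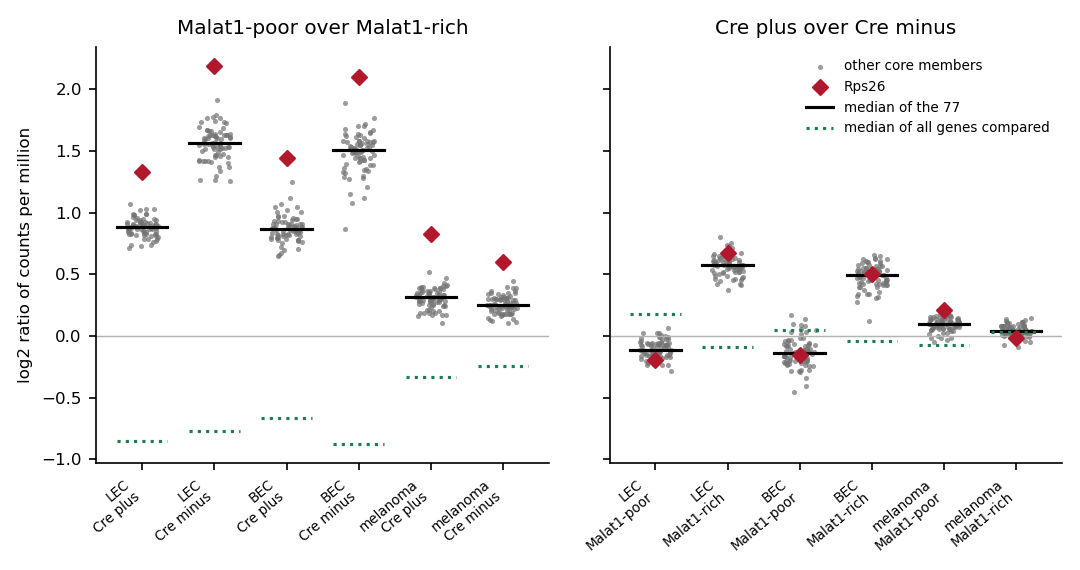
Log2 ratio of CPM (vertical axis) of each core member in 6 comparisons of Malat1-poor over Malat1-rich barcodes (left) and 6 of Cre plus over Cre minus (right). Grey points are members, red diamonds Rps26, black bars the median of the 77 and dotted green bars the median of all genes compared; on the left Rps26 is the highest point in each column.

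Other genes of translation were compared in the same way. A list of elongation factors and nascent chain proteins, among them Eef1a1 and Eef2, had a median log2 ratio of 0.64 in LEC of Cre plus and 1.10 in those of Cre minus, and 9 of 11 measured genes in Cre plus, and in Cre minus 9 of 9, were over 1.5-fold higher. The other 2 in Cre plus were over 1.5-fold lower. Of all genes, 5.15% in Cre plus and 15.8% in Cre minus were over 1.5-fold higher, and 59.4% and 54.4% over 1.5-fold lower. Initiation factors and poly(A) binding proteins had medians of 0.30 and 0.44, with 5 of 32 and 11 of 32 over 1.5-fold higher and 3 and 4 lower. Genes of ribosome biogenesis in the nucleolus had medians of −0.25 and −0.34, with 3 of 36 and 6 of 28 over 1.5-fold higher and 15 and 10 lower. The nuclear-retained RNAs, whose Malat1 set the strata, are given as a description only: −5.18 and −7.86.

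The S6 kinase genes that the symbol rule takes were mostly lower in Malat1-poor LEC, where the median of all genes was also below 0 (−0.85 in Cre plus and −0.77 in Cre minus). Rps6kb1, the S6 kinase downstream of mTORC1, had log2 ratios of −1.08 in Cre plus and −2.13 in Cre minus LEC, and Rps6ka3, a kinase of the ERK pathway, −0.85 and −1.33. Rps6ka5, a kinase that phosphorylates histones, had 10 UMIs in Malat1-poor and 662 UMIs in Malat1-rich LEC of Cre plus (log2 ratio −3.67). In Cre minus it had 0 and 79 UMIs, which with a floor of 3 UMIs over the Malat1-poor sum is lower by at least 5.20 on the log2 scale. Rps6kc1 stood at −2.45 and −2.72, while Rps6ka1 was at −0.46 and 0.05. The kinases lay below 0 in LEC, apart from Rps6ka1 in Cre minus, Rps6ka4 in Cre plus (0.26) and Rps6ka6, which had no UMI in 3 of the 4 LEC sums. Several of the kinases rest on few UMIs: Rps6ka4 had 9 and 39 in Cre plus, with an interval of −0.97 to 1.33.

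The genotype comparison asked how the members stood in Ifngr1iProx1 against Ifngr1WT mice, class by class and within a Malat1 stratum. In Malat1-rich LEC all 77 core members were higher in Cre plus, by a median log2 ratio of 0.58 (range 0.37 to 0.80), against −0.09 for all genes. Of the 77, 36 were over 1.5-fold higher, at a background of 11.5%. The 95 genes together held 14.8% of UMIs in Cre plus, against 9.90% in Cre minus (log2 ratio 0.58, interval 0.57 to 0.59). In Malat1-poor LEC the direction was the other: the median of the 77 was −0.11 against 0.18 for all genes, 5 of the 77 were above 0, and 0 were over 1.5-fold higher (background 20.2%). The strata were unequal, with 436 Malat1-rich and 348 Malat1-poor LEC in Cre plus, against 37 and 177 in Cre minus. Ratios within a stratum therefore do not give the direction for LEC of both strata together. Over both strata, the 95 genes held a lower share of the UMIs of LEC in Cre plus than in Cre minus. In Cre plus they held 2052804 of 13885244 UMIs in Malat1-rich and 735676 of 2676900 in Malat1-poor LEC. In Cre minus these were 80204 of 810094 and 332405 of 1127271.

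Rplp0, the protein at the base of the stalk, stood at 1928 CPM in Malat1-rich LEC of Cre plus, against 1105 CPM in those of Cre minus, the largest log2 ratio of the 77 (0.80, interval 0.71 to 0.90). Rps2 had 2584 and 1534 CPM (0.75) and Rpl24, which forms a bridge between the subunits, 1752 and 1059 CPM (0.73). At the lower end were Rpl5, which carries 5S RNA into the large subunit, with 1190 and 920 CPM (0.37), Rpl6 with 2033 and 1517 CPM (0.42) and Rplp1 with 2507 and 1824 CPM (0.46). Each of these members was higher in Cre plus.

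In BEC, where Prox1 was at 5.42 CPM (21 UMIs) in Malat1-rich barcodes of Cre plus and 0 in those of Cre minus, the direction was the same. In Malat1-rich BEC all 77 were higher in Cre plus, with a median of 0.49 (range 0.12 to 0.65; all genes −0.04), and 12 of the 77 were over 1.5-fold higher (background 8.63%). Rpl39, Rps7 and Rpl37a were among the highest, with log2 ratios between 0.63 and 0.65, and Rpl4 (0.12) was lowest. In Malat1-poor BEC the median was −0.14 (all genes 0.04), with 0 of the 77 over 1.5-fold higher (background 10.3%). In melanoma the medians were 0.04 in Malat1-rich (all genes 0.03, background 2.43%) and 0.10 in Malat1-poor barcodes (all genes −0.07, background 1.57%), with 0 of the 77 over 1.5-fold higher in either. With under 5% mitochondrial UMIs the ratio of the 95 genes in Malat1-rich melanoma barcodes was −0.014, where it was 0.047 otherwise. Malat1-rich macrophages had a median of −0.14 (all genes −0.01). All these ratios share the same 2 libraries, and whether the classes differ was not tested.

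A few deep barcodes weighed heavily in the endothelial sums. The 3 deepest barcodes held 29.6% of the UMIs of Malat1-rich LEC in Cre minus and 2.96% in Cre plus. Without the 3 deepest barcodes of each sum the log2 ratio of the 95 genes was 1.13 in Malat1-rich LEC, with 77 of 77 core members over 1.5-fold higher, and 0.93 in Malat1-rich BEC, with 76 of 77. Without cycling barcodes it was 0.71 in LEC (68 of 77) and 1.06 in BEC (76 of 77). With the Malat1 border at 0.05% the LEC ratio was 0.53 (19 of 77) and at 0.2% it was 0.72 (72 of 77). With under 5% mitochondrial UMIs the BEC ratio was 0.35 and 0 of 77 passed. The ratios of Malat1-rich LEC and BEC were above 0 under each of the alternatives run. The share of all genes over 1.5-fold higher was computed for the main setting only (11.5% in LEC and 8.63% in BEC). The counts under the alternatives therefore have no background beside them.

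Other measures differed between the libraries in the same barcodes. The median Malat1 share of Malat1-rich LEC was 0.931% in Cre plus, against 1.37% in Cre minus, and their median mitochondrial share 1.44% and 2.19%. In Malat1-rich BEC the median Malat1 share was 1.23% in Cre plus, against 1.05% in Cre minus, the other direction from LEC. Their median mitochondrial share was 2.23% and 3.66%, and the median depth 23760.5 and 13724 UMIs. Macrophage markers summed to 35.9 CPM in Malat1-rich LEC of Cre plus (9 of 9 markers above 0) and 102 CPM in those of Cre minus (9 of 9), and red cell markers to 46.7 and 407 CPM. In Malat1-rich BEC macrophage markers were at 31.5 and 19.6 CPM (8 of 9 and 7 of 9 above 0), and red cell markers at 48.3 and 74.4 CPM. The part of these measures in the ribosomal protein ratios was not tested.

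Of the pathway lists in Malat1-rich LEC, the elongation factors had a genotype median of 0.47 (1 of 11 over 1.5-fold higher), the initiation factors 0.24 (5 of 32) and ribosome biogenesis 0.13 (4 of 36), and 0 genes of these lists were over 1.5-fold lower. A list of RNA polymerase I subunits, their factors, Myc and Mycn had −0.07 (0 of 12 higher and 1 lower). The mTORC1 arm, with parts such as Mtor and restraining genes such as Tsc1 and Tsc2, had −0.32 (0 of 11 higher and 2 lower). Its median therefore gives no direction for the pathway. Over all genes 11.5% were over 1.5-fold higher and 15.4% over 1.5-fold lower. In Malat1-rich BEC the same lists had 0.35, 0.20, −0.01, −0.02 and −0.03.

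LEC gave a slightly larger share of UMIs to ribosomal proteins than BEC of the same library and stratum, and no core member was over 1.5-fold higher. The core median of LEC over BEC was 0.25 in Cre plus and 0.17 in Cre minus for Malat1-rich barcodes (all genes 0.17 and 0.15), and 0.26 and 0.23 for Malat1-poor barcodes (all genes 0.07 and 0.01). In each of the 4 comparisons 0 of the 77 core members were over 1.5-fold higher, where 22.6% of all genes in Cre plus and 20.3% in Cre minus were so among Malat1-rich barcodes, and 23.5% and 18.6% among Malat1-poor barcodes. With under 5% mitochondrial UMIs the log2 ratio of the 95 genes was −0.013 in Malat1-rich barcodes of Cre minus, where it was 0.15 otherwise. The count of 0 depended on the cycling barcodes in Malat1-rich barcodes of Cre minus: without them the ratio was 0.62 and 48 of 77 core members were over 1.5-fold higher. In the other settings run, between 0 and 14 were, over the 4 comparisons. The share of all genes was not computed under these settings.

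Within the family, 19 core members lay above the core median of LEC over BEC in all 4 comparisons and 23 below it. Rps28, of the small subunit, ranked 2 or 3 in each: it had 2336 CPM in LEC and 1723 CPM in BEC among Malat1-rich barcodes of Cre plus, and 1481 and 1140 CPM in those of Cre minus. Rpl12, at the base of the stalk, had 1598 and 1091 CPM in Cre plus and 1113 and 870 CPM in Cre minus; its log2 ratios were 0.55 and 0.36. Rpl21 was between 0.21 and 0.26 above the core median, and Rpsa, also known as a precursor of the laminin receptor, between 0.04 and 0.29 above it. Rpl41 was lowest or next to lowest in each, with 2940 and 2972 CPM in Cre plus and 1839 and 2206 CPM in Cre minus. Rplp0 (between 0.16 and 0.42 below the core median) and Rpl38 followed. The correlation between the libraries over the 77 was 0.66 in Malat1-rich and 0.72 in Malat1-poor barcodes.

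Set against melanoma cells of the same library, LEC had a different mixture of ribosomal protein transcripts. The core median itself depended on the stratum, at −0.20 in Cre plus and −0.70 in Cre minus for Malat1-rich barcodes and 0.40 and 0.63 for Malat1-poor barcodes, so members are given relative to it. Rpl36a, an X-linked gene of the large subunit, ranked first of the 77 in all 4 comparisons, between 1.13 and 1.24 above the core median. It had 1054 CPM in LEC and 512 CPM in melanoma among Malat1-rich barcodes of Cre plus, 694 and 507 CPM in those of Cre minus, 1938 and 624 CPM among Malat1-poor barcodes of Cre plus, and 2037 and 601 CPM in those of Cre minus. Rps20 (0.80 to 0.89 above the core median) and Rps12 (0.66 to 0.94) held ranks 2 and 3 throughout. Rps23 and Rps24 each had ranks between 4 and 8.

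The lowest members were Rplp1, Rpl32, Rpl31, Rpl27 and Rpl36. Rplp1 had 2507 CPM in LEC and 5828 CPM in melanoma among Malat1-rich barcodes of Cre plus, and 1824 and 5730 CPM in those of Cre minus. Among Malat1-poor barcodes it had 4830 and 6883 CPM in Cre plus, and 5584 and 6783 CPM in Cre minus. LEC were below melanoma in each, and Rplp1 lay between 0.91 and 1.02 below the core median. Rpl32 lay 0.86 to 0.99 and Rpl31 0.84 to 0.95 below it. As a share of all core UMIs, Rpl32 made up 1.86% in Malat1-rich LEC and 3.33% in Malat1-rich melanoma barcodes of Cre plus, and 1.83% and 3.18% in those of Cre minus. Of the 77, 30 were above and 30 below the core median in all 4 comparisons. The 77 log2 ratios of the libraries correlated at 0.97 in Malat1-rich and 0.98 in Malat1-poor barcodes.

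**Figure D4:**
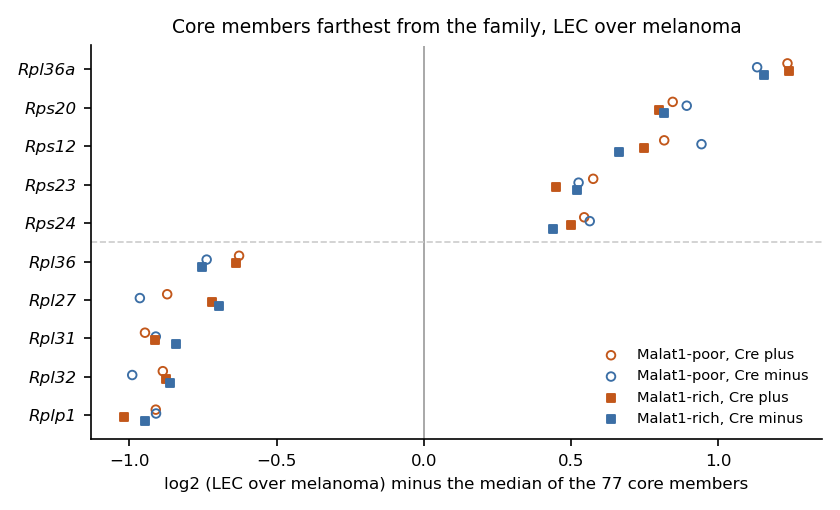
Log2 ratio of LEC over melanoma minus the median of the 77 core members (horizontal axis) for the 5 highest and 5 lowest core members by their mean over 4 comparisons. Open circles are Malat1-poor and filled squares Malat1-rich barcodes of Cre plus (orange) and Cre minus (blue); Rpl36a lies between 1.13 and 1.24 and Rplp1 between −1.02 and −0.91 in all 4.

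Paralogs were compared between classes as the share of a pair's UMIs that fell to the paralog. Rpl36al, the autosomal copy of the X-linked Rpl36a, took 33.7% of the pair's UMIs in Malat1-rich LEC of Cre plus (7444 of Rpl36al beside 14631 of Rpl36a; interval 33.1% to 34.3%) and 37.0% in those of Cre minus (33.8% to 40.3%). BEC had 35.1% and 37.4%, within the intervals of LEC in Cre minus and above that in Cre plus. In Malat1-rich melanoma barcodes it took 69.5% (69.1% to 69.9%) in Cre plus and 68.9% (68.6% to 69.2%) in Cre minus, and in Malat1-rich macrophages 48.8% in each. Malat1-poor barcodes kept the order, with 30.6% and 28.7% in LEC and 71.2% and 70.3% in melanoma. The genes are close in sequence, so UMIs assigned to one may belong to the other, and the row Rpl36a-ps1 of a further copy had 361 UMIs.

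Rps27l, a paralog of Rps27 known as a target of p53, took 20.3% of the pair's UMIs in Malat1-rich LEC of Cre plus and 20.4% in those of Cre minus, 18.1% and 19.3% in BEC, and 22.02% and 21.02% in macrophages. In Malat1-rich melanoma barcodes it took 39.4% in Cre plus, against 37.3% in Cre minus. Melanoma barcodes thus lay above LEC, BEC and macrophages in both libraries, beyond counting error. Rpl22l1, the paralog that Rpl22 holds down, differed in the other direction: 43.1% (42.5% to 43.7%) in Malat1-rich LEC of Cre plus and 40.8% (37.8% to 43.9%) in those of Cre minus, 35.8% and 35.5% in BEC, 33.6% and 34.7% in melanoma, and 27.8% and 27.5% in macrophages. Its level in LEC over BEC had log2 ratios of 0.65 and 0.43 in Malat1-rich and 0.66 and 0.62 in Malat1-poor barcodes of Cre plus and Cre minus, each above the core median.

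**Figure D5:**
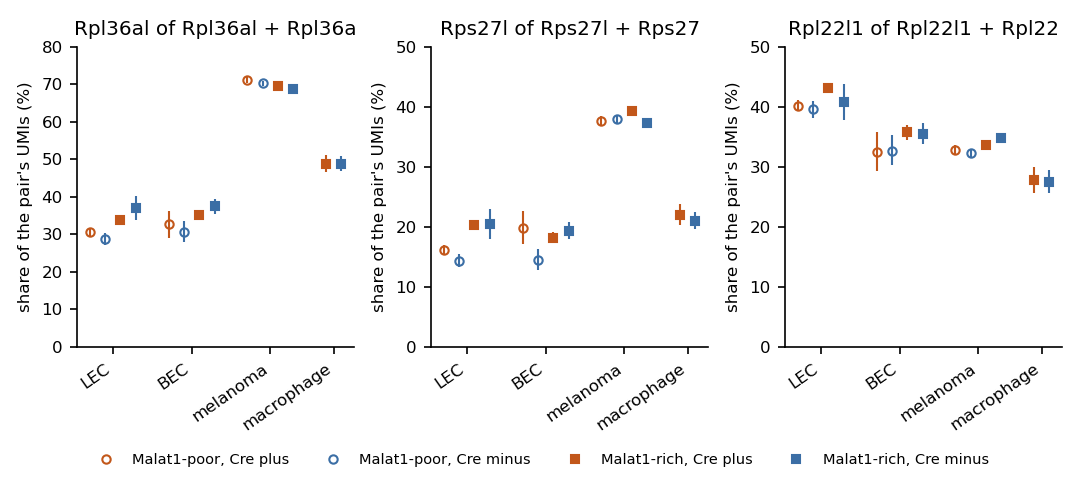
Share of the summed UMIs of a paralog pair that fell to the paralog (vertical axes, percent) for Rpl36al, Rps27l and Rpl22l1 in LEC, BEC, melanoma and macrophage barcodes. Circles are Malat1-poor and squares Malat1-rich barcodes, orange Cre plus and blue Cre minus, with 95% intervals of counting error; in Malat1-rich barcodes of Cre plus Rpl36al stood at 69.5% in melanoma and 33.7% in LEC.

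The other paralogs were low. Rps27rt, a retrotransposed copy of Rps27, took between 0.756% and 1.71% of its pair in all sums. Rpl7l1 took 7.94% beside Rpl7 in Malat1-rich LEC of Cre plus and 9.25% in those of Cre minus, and 4.87% and 3.54% in Malat1-poor LEC. Rpl3l, the form of Rpl3 known from striated muscle, took 0.253% and 0.397% in Malat1-rich melanoma barcodes of Cre plus and Cre minus, 0.431% and 0.486% in Malat1-rich macrophages (6 and 8 UMIs of Rpl3l), 0.0438% and 0.129% in Malat1-rich BEC (2 and 3 UMIs), and 0.0279% in Malat1-rich LEC of Cre plus (6 UMIs beside 21492). In Malat1-rich LEC of Cre minus it had 0 UMIs beside 807. With a floor of 3 UMIs this allows up to 0.372%, and the exact interval reaches 0.456%. Rpl39l, known from testis, had 11 UMIs in Malat1-rich LEC of Cre plus beside 30720 of Rpl39, and 0 beside 1210 in those of Cre minus, which with that floor allows a share of up to 0.248% (the upper bound of the exact interval is 0.304%).

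By genotype the paralogs had these values. In Malat1-rich LEC Rpl22l1 had a log2 ratio of 0.71, Rps27l 0.44, Rpl36al 0.40 and Rpl7l1 0.22, against the core median of 0.58. In Malat1-poor LEC they stood at −0.10, 0.06, 0.06 and 0.35. Over 15 sums of class, stratum and library, the genes outside the family whose log2 CPM followed that of the summed core members most closely were Pgls, of the pentose phosphate pathway (r = 0.97), Cox7a2l, a factor of respiratory supercomplexes (0.96), Tmem134 (0.96), Eif3k, a subunit of an initiation factor (0.95), and Gm11808 (0.95), of 10896 genes compared. Those that ran most against it were Bcl2, an inhibitor of cell death (−0.97), Swt1 (−0.96), Papolg, a nuclear poly(A) polymerase (−0.96), Rbm5, a splicing factor (−0.95), and Ttc14 (−0.95). The sums share libraries and strata, and these values are descriptions.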

How the data were processed

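Cells sorted as CD31-positive from tumors were measured in 1 single-cell library per genotype. The deposited values are UMI counts per gene and barcode, not normalized; per the submitters' processing notes Cell Ranger 7.0.0 and the build mm10 were used, and no source used here names the annotation. The files hold the barcodes the authors deposited, 2491 and 2502, with 66704257 and 76967583 UMIs.

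Barcodes were kept if they had 500 genes or more and a mitochondrial share under 10%. A barcode entered a class if at least 2 markers were detected and the markers reached 10 UMIs (lymphatic, blood endothelial, T and NK), 20 UMIs (other classes) or 500 UMIs (red cells) in 10000. LEC also needed more lymphatic than blood markers, and BEC at least as many blood as lymphatic markers, so no barcode could pass both. Barcodes past several gates were set aside, with no doublet caller run. Cycling barcodes had at least 10 cycling marker UMIs in 10000. These thresholds were set after marker shares had been seen, and the members and gene lists were chosen with earlier results of these data known.

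Counts were summed by class, library and Malat1 stratum. Shares have exact (Clopper-Pearson) and ratios exact conditional binomial 95% intervals, which cover counting error only, and genes with at least 50 UMIs in both sums together were compared. Over 1.5-fold is the size named in the text, not a test. Named singly were the 6 members of highest count, in each comparison the 4 farthest above and 4 farthest below the core median by the interval bound nearest to it, those above or below it in every comparison of a kind, and the paralog pairs. Of these the text gives the ones most often named, and the results of some genes are not reported here. Promoters came from RefSeq (GRCm38.p6) and chromosomes from GENCODE M21. Python 3.11.15, numpy 2.4.6, scipy 1.17.1, pandas 2.3.3 and matplotlib 3.10.9 were used, and the ratios and intervals were tested on simulated data. Alternatives changed the barcode filter, gates, Malat1 border, cycling barcodes, scaling, depth and member list.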

Additional observations from a re-analysis of the deposited data

Results flagged for a closer look

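The genotype medians of the 77 core members differed in sign between classes and Malat1 strata. All are log2 ratios of Cre plus over Cre minus, from 1 library each, and the differences between them were not tested. Among Malat1-rich barcodes the median was 0.58 in LEC, 0.49 in BEC and 0.039 in melanoma, but −0.14 in macrophages. Among Malat1-poor barcodes it was −0.11 in LEC and −0.14 in BEC, but 0.10 in melanoma. Within LEC and within BEC the Malat1-rich and Malat1-poor medians had opposite signs.

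Ribosomal protein UMIs were also present in data that the comparisons did not use. Barcodes left out for 10% or more mitochondrial UMIs, and not dominated by haemoglobin, gave the 95 genes 9.05% of UMIs in Cre plus (466 barcodes) and 8.41% in Cre minus (728 barcodes). Rows with a -ps suffix held 2022 UMIs for Rpl10-ps3, 1585 for Rpl9-ps6 and 361 for Rpl36a-ps1 over both libraries.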

How the results depend on the processing

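Of 1304 values of 104 results under 13 alternatives, 810 stayed within the counting interval (a count within 1.5 times), 492 moved past it and 2 changed sign; 505 of 507 ratios kept the sign. The intervals are narrow at these depths, so small moves pass them, and the cause was not tested for any. Both sign changes came under 5% mitochondrial UMIs: LEC over BEC in Malat1-rich barcodes of Cre minus (−0.013) and the genotype ratio of Malat1-rich melanoma barcodes (−0.014). No paired analysis was possible because each group is 1 library. The last 3 settings below were chosen after seeing the data. Members with at least 500 UMIs gave values within the interval in each main result.

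Values below follow one order of settings: at least 200 genes and under 20% mitochondrial UMIs, gates doubled, Malat1 border at 0.05%, border at 0.2%, without cycling barcodes, scaled to UMIs outside ribosomal protein, mitochondrial and haemoglobin genes and Malat1 (ratios only), mean over barcodes, thinned to 2000 UMIs, core members only, under 5% mitochondrial UMIs, at least 10000 UMIs, and without the 3 deepest barcodes.

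The share in LEC Malat1-rich Cre plus (14.8%) was 14.7, 14.8, 14.9, 14.6, 14.8, 13.6, 13.4, 14.5, 14.98, 14.8 and 14.8%. The share in LEC Malat1-rich Cre minus (9.901%) was 9.74, 9.76, 10.3, 8.895, 9.05, 8.82, 7.87, 9.71, 10.1, 9.73 and 6.74%. The share in LEC Malat1-poor Cre plus (27.5%) was 27.5, 27.2, 28.97, 25.6, 29.4, 29.2, 29.7, 27.2, 27.5, 24.6 and 28.1%. The share in LEC Malat1-poor Cre minus (29.5%) was 29.6, 29.5, 29.7, 28.8, 30.01, 30.5, 30.5, 29.2, 29.7, 26.9 and 29.4%.

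Malat1-poor over Malat1-rich in LEC Cre plus (0.89) was 0.90, 0.88, 0.96, 0.81, 0.99, 1.12, 1.11, 1.14, 0.90, 0.88, 0.73 and 0.93. Malat1-poor over Malat1-rich in LEC Cre minus (1.57) was 1.605, 1.597, 1.52, 1.697, 1.73, 1.92, 1.79, 1.96, 1.59, 1.55, 1.47 and 2.12. Malat1-poor over Malat1-rich in BEC Cre plus (0.88) was 0.91, 0.79, 0.87, 0.72, 0.91, 1.04, 1.22, 1.17, 0.89, 0.84, 0.84 and 1.04. Malat1-poor over Malat1-rich in BEC Cre minus (1.51) was 1.52, 1.44, 1.504, 1.65, 2.14, 1.76, 1.904, 1.89, 1.52, 1.32, 1.397 and 2.09. Malat1-poor over Malat1-rich in melanoma Cre plus (0.31) was 0.33, 0.29, 0.34, 0.21, 0.38, 0.36, 0.33, 0.35, 0.32, 0.30, 0.30 and 0.33. Malat1-poor over Malat1-rich in melanoma Cre minus (0.26) was 0.27, 0.25, 0.25, 0.20, 0.27, 0.27, 0.19, 0.20, 0.26, 0.17, 0.26 and 0.26.

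The genotype ratio in LEC Malat1-rich (0.58) was 0.60, 0.60, 0.53, 0.72, 0.71, 0.65, 0.62, 0.77, 0.58, 0.56, 0.61 and 1.13. The genotype ratio in LEC Malat1-poor (−0.10) was −0.11, −0.12, −0.037, −0.17, −0.027, −0.15, −0.061, −0.042, −0.10, −0.11, −0.13 and −0.064. The genotype ratio in BEC Malat1-rich (0.49) was 0.52, 0.54, 0.4981, 0.79, 1.06, 0.54, 0.58, 0.59, 0.4955, 0.35, 0.49 and 0.93. The genotype ratio in BEC Malat1-poor (−0.13) was −0.090, −0.11, −0.13, −0.13, −0.17, −0.18, −0.11, −0.14, −0.13, −0.13, −0.063 and −0.12. In melanoma Malat1-rich barcodes this ratio was 0.047 as reported, and 0.050, 0.042, 0.044, 0.048, 0.053, 0.045, 0.0051, 0.00055, 0.046, −0.014, 0.047 and 0.043. In melanoma Malat1-poor barcodes this ratio was 0.10 as reported, and 0.11, 0.085, 0.13, 0.058, 0.16, 0.13, 0.14, 0.15, 0.10, 0.11, 0.090 and 0.12. In macrophage Malat1-rich barcodes this ratio was −0.14 as reported, and −0.14, −0.17, −0.14, −0.13, −0.19, −0.16, −0.32, −0.26, −0.14, −0.15, −0.13 and −0.19.

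LEC over BEC in Malat1-rich Cre plus barcodes (0.24) was 0.25, 0.20, 0.24, 0.23, 0.28, 0.27, 0.43, 0.41, 0.24, 0.20, 0.22 and 0.35. LEC over BEC in Malat1-rich Cre minus barcodes (0.15) was 0.17, 0.14, 0.21, 0.31, 0.62, 0.15, 0.39, 0.23, 0.15, −0.013, 0.10 and 0.14. LEC over BEC in Malat1-poor Cre plus barcodes (0.25) was 0.24, 0.28, 0.32, 0.32, 0.36, 0.34, 0.32, 0.39, 0.25, 0.24, 0.10 and 0.23. LEC over BEC in Malat1-poor Cre minus barcodes (0.22) was 0.26, 0.29, 0.23, 0.36, 0.21, 0.32, 0.27, 0.29, 0.22, 0.22, 0.17 and 0.18.

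Counts of core members over 1.5-fold higher are given where they left 1.5 times the main count. The share of all genes over 1.5-fold higher was not computed under the alternatives, so these counts have no background. For Malat1-poor over Malat1-rich in melanoma Cre plus the count (1) was 0 with the border of 0.2%, 2 without cycling barcodes and 2 thinned. For Malat1-poor over Malat1-rich in melanoma Cre minus the count (1) was 0 with doubled gates, 0 with the border of 0.2%, 0 under 5% mitochondrial UMIs and 0 at 10000 UMIs or more. For Cre plus over Cre minus in LEC Malat1-rich the count (36) was 19 with the border of 0.05%, 72 with the border of 0.2%, 68 without cycling barcodes, 61 scaled to other UMIs, 63 thinned and 77 without the deepest. For Cre plus over Cre minus in BEC Malat1-rich the count (12) was 24 with doubled gates, 72 with the border of 0.2%, 76 without cycling barcodes, 23 scaled to other UMIs, 37 as a mean over barcodes, 38 thinned, 0 under 5% mitochondrial UMIs and 76 without the deepest. For Cre plus over Cre minus in BEC Malat1-poor the count (0) was 2 at 10000 UMIs or more. For LEC over BEC in Malat1-rich Cre plus the count (0) was 1 without cycling barcodes, 10 as a mean over barcodes, 13 thinned and 2 without the deepest. For LEC over BEC in Malat1-rich Cre minus the count (0) was 48 without cycling barcodes, 14 as a mean over barcodes and 7 thinned. For LEC over BEC in Malat1-poor Cre plus the count (0) was 1 with doubled gates, 1 with the border of 0.05%, 1 with the border of 0.2%, 3 without cycling barcodes, 3 scaled to other UMIs, 3 as a mean over barcodes, 10 thinned and 1 without the deepest. For LEC over BEC in Malat1-poor Cre minus the count (0) was 1 with the looser filter, 2 with doubled gates, 1 with the border of 0.05%, 3 with the border of 0.2%, 4 scaled to other UMIs, 1 as a mean over barcodes, 5 thinned and 2 at 10000 UMIs or more.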

Other observations

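Among barcodes outside the classes, those with over 50% haemoglobin UMIs gave the 95 genes 0.448% of UMIs in Cre plus (229 barcodes) and 0.544% in Cre minus (220 barcodes). Kept barcodes that passed no gate stood at 23.5% and 23.7%, and mixed barcodes at 15.6% and 15.1%. The 14 and 2 barcodes left out for under 500 genes alone stood at 51.1% and 66.2%, on 21821 and 6098 UMIs.

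Cycling barcodes had lower ribosomal protein shares than the others in Malat1-poor LEC, with medians of 24.98% (79 barcodes) and 29.4% (269 barcodes) in Cre plus and 27.3% (29 barcodes) and 30.2% (148 barcodes) in Cre minus. In Malat1-rich LEC of Cre minus the medians were 18.2% in 7 cycling and 6.07% in 30 other barcodes, while in Cre plus they were 14.3% in 97 cycling and 14.3% in 339 other barcodes. In Malat1-rich BEC of Cre minus they were 10.2% in 22 cycling and 3.94% in 115 other barcodes, and in Cre plus 13.3% in 24 and 9.79% in 120.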
